A study of Mus musculus with 24 samples.

Results

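RGS genes encode regulators of G protein signalling. The 7 genes Rgs1, Rgs2, Rgs3, Rgs10, Rgs14, Rgs16 and Rgs19 were read from the rows of the count tables that carry these symbols, among 23420 genes in all, and all 7 had enough counts to be tested. The RNA came from CD4 T cells of mice on a C57BL/6 background, cultured and sorted outside the animal. Every group shared the same genotype, written OT2Nur77GFP+/- in the labels, which joins the Nr4a1-EGFP/cre transgene (820Khog), a reporter of receptor signalling driven by the Nr4a1 (Nur77) promoter, to the OT-II receptor transgenes (TcraTcrb, 425Cbn), which fix 1 T cell receptor specific for ovalbumin. Reactivated TH1 cells had been differentiated over 5 days and then met macrophages carrying antigen for 6 hours. TH1 effector cells were differentiated in the same way, with no such second contact named. For activated naive cells the labels give a stimulation of 6 hours without naming what was added, and naive cells were isolated from spleen. Each group had 6 libraries, numbered 1 to 6, and nothing in the labels says whether a number stands for 1 animal or 1 culture. Ages of the animals are not given.

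Receptors that span the membrane and couple to G proteins carry chemokine, lipid and prostaglandin signals into T cells. A bound receptor loads the alpha subunit of the G protein with GTP, and alpha and beta-gamma subunits then act on effectors such as adenylyl cyclases, phospholipases and a phosphoinositide kinase. RGS proteins bind the active alpha subunit and speed the hydrolysis of its GTP, which shortens the signal, and in lymphocytes several of them are known to curb migration towards chemokines.

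The libraries held 18457653 to 34262645 counts assigned to genes, from 2 sequencing runs with 3 libraries of every group in each. CPM below are counts per gene scaled to a common library total. The 9 T cell markers listed were all measured, and their summed level was 4386 to 4808 CPM in reactivated TH1, 3669 to 4089 in TH1 effector, 4726 to 5636 in activated naive and 4803 to 5309 CPM in naive libraries. Of 14 macrophage markers 13 were measured, and their summed level was 12.2 to 17.7 CPM in reactivated TH1, 3.29 to 4.64 in TH1 effector, 9.99 to 12.04 in activated naive and 7.54 to 11.3 CPM in naive libraries. Cd68 made up most of the sum in activated naive cells, with a mean of 9.98 CPM. Lyz2 averaged 5.98 CPM in reactivated TH1 and 0.070 CPM in TH1 effector libraries, and C1qb, C1qc and Csf1r averaged 1.503, 0.900 and 0.724 CPM in reactivated TH1 libraries. Marco was at 0 in all 4 groups, and Csf1r, Fcgr1, C1qa, C1qb and C1qc were among those at 0 in TH1 effector libraries. In bulk RNA, more cells that carry a transcript and more transcript per cell cannot be told apart.

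Stimulation split the 7 genes into those that rose and those that fell, and the split was nearly the same in both cell states. Rgs16, Rgs1 and Rgs3 rose in reactivated TH1 against TH1 effector libraries and in activated naive against naive libraries. Rgs10, Rgs14 and Rgs19 fell in both. Rgs2 rose in reactivated TH1 against TH1 effector libraries and did not pass the test in activated naive against naive libraries. In reactivated TH1 against TH1 effector libraries 4 of 7 members were higher and 3 lower at an adjusted p under 0.05, where 39.9% of the 12584 genes tested were higher and 39.8% lower. In activated naive against naive libraries 3 members were higher and 3 lower, where 41.3% of all genes were higher and 40.5% lower. With most of the transcriptome past the threshold, the number of members called says little by itself, and the sizes of their changes are given one by one.

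**Figure D1:**
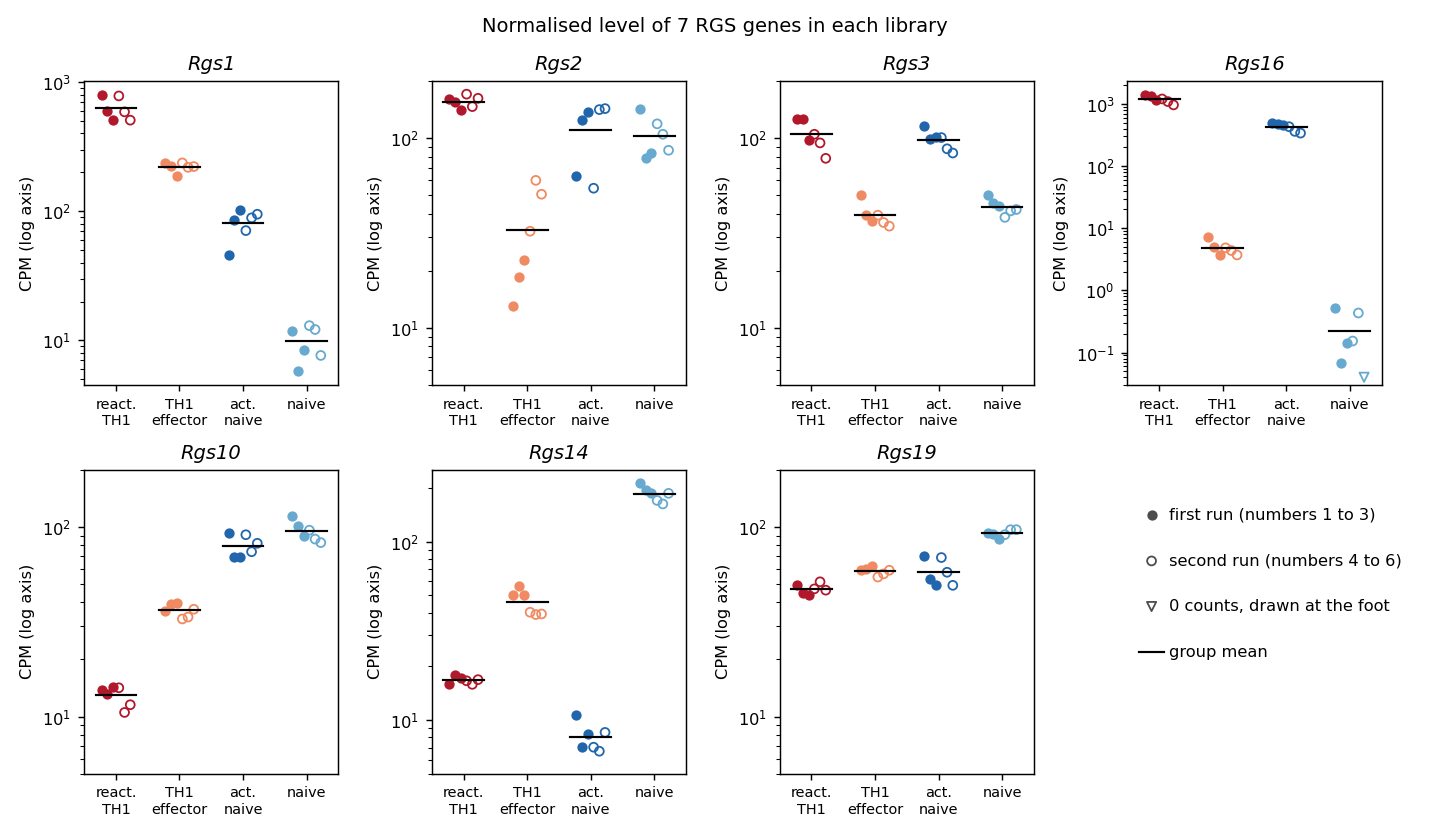
Normalised level (CPM, log axis) of each of the 7 RGS genes in the 24 libraries. Columns are reactivated TH1, TH1 effector, activated naive and naive cells with 6 libraries each, filled points are the first run, open points the second, a triangle marks a library with 0 counts and black lines are group means. Rgs16 is at 962 CPM or more in reactivated TH1 and under 1 CPM in naive libraries, while Rgs14 is lowest in activated naive and highest in naive libraries.

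Promoter sequence was available in RefSeq for 5 of the 7 members, as the 250 bases before an annotated start on GRCm38.p6, the build also called mm10. The windows of Rgs16 and Rgs2, which rose in reactivated TH1 cells, and of Rgs10, which fell, are shown because they differ in response and were picked for holding the pattern marked in them. Each is written 5′ to 3′ on the strand of the gene. Capitals mark matches on either strand to the loose pattern GGGNNNNNCC of NF-kB, a family of transcription factors that T cell receptor signalling switches on.
Rgs16, chr1:153740103-153740352, plus strand: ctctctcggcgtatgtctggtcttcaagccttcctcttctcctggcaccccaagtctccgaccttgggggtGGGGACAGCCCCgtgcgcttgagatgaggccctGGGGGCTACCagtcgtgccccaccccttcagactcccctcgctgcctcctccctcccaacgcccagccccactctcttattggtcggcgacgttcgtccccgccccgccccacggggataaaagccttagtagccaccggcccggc
Rgs2, chr1:144004150-144004399, minus strand: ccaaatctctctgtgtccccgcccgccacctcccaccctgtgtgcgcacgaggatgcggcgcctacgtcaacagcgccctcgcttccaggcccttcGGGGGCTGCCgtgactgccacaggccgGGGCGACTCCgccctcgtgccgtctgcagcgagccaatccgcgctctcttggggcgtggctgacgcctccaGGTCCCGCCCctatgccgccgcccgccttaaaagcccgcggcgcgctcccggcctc
Rgs10, chr7:128418173-128418422, minus strand: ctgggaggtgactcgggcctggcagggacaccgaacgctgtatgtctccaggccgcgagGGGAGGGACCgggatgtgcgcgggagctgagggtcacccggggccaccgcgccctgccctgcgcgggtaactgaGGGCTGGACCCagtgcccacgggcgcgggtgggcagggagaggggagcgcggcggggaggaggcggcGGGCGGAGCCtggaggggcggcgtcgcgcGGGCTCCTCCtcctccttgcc

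The Rgs16 window held 4 such matches, of which 3 overlap each other, the Rgs2 window 3 and the Rgs10 window 5. The 3 windows of Rgs19, which fell, held 1, 2 and 1 matches, and the 2 windows of Rgs3, which rose, held 0. Of all windows, 45.8% of the 32851 of this length in RefSeq held at least 1 match. Cytosine and guanine made up 66.4% of the Rgs16 window, 72.4% of the Rgs2 window and 76.4% of the Rgs10 window. The Rgs10 window lies inside the annotated span of its gene, chr7:128373621-128418758, so another annotated start lies upstream of it. No match to the NFAT core GGAAA, the AP-1 pattern TGANTCA, the cyclic AMP element TGACGTCA or the E-box CACGTG lay in the 3 windows shown, on either strand. Of all windows, 55.6% held the NFAT core, 6.75% the AP-1 pattern, 1.55% the cyclic AMP element and 6.02% the E-box. The EGR pattern GCGNGGGCG was found once in the Rgs2 window, at -176 from the start, and once in 1 window of Rgs19, at -98. Of all windows, 4.70% held it. The 3 windows of Rgs19, in the same order as above, held 2, 0 and 1 matches to the NFAT core. The 2 windows of Rgs3 held 0 and 1 matches to it. A match is a run of letters and was not tested as a binding site.

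Rgs16 showed the widest range of the 7 genes. It encodes a small RGS protein that acts on Gi and Gq alpha subunits, and it lies at chr1:153740349-153745468 on the plus strand, with 1 annotated transcript of 2339 bases. Its level was 962 to 1382 CPM in reactivated TH1 libraries (median 1171) and 3.71 to 7.11 CPM in TH1 effector libraries (median 4.60). It was 338 to 502 CPM in activated naive libraries (median 439) and 0 to 0.516 CPM in naive libraries (median 0.148). No pair of groups overlapped, and the 6 naive libraries held 32 counts of Rgs16 between them, 1 of them none. Reactivated TH1 libraries stood 7.95 log2 units above TH1 effector libraries (SE 0.34, adjusted p = 3.64e-20, 248-fold), the 27th largest increase of all genes tested. Activated naive libraries stood 10.91 log2 units above naive libraries (SE 0.34, adjusted p = 1.88e-21), the 7th largest increase. That fold rests on the few naive counts, and so does much of the SE. Reactivated TH1 libraries also exceeded activated naive libraries by 1.48 log2 units (adjusted p = 1.54e-09), and TH1 effector libraries exceeded naive libraries by 4.44 (adjusted p = 8.88e-13). An antisense gene, Gm28513, shares 10.1% of the exon length of Rgs16, and reads there cannot be told apart where counting ignored strand.

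Rgs1 was higher in TH1 than in naive cells and rose with stimulation in both. It is known in lymphocytes for blunting the response to chemokines, and lies at chr1:144242296-144249242 on the minus strand. Rgs1 had 506 to 796 CPM in reactivated TH1 libraries (median 590.4) and 188 to 236.7 CPM in TH1 effector libraries (median 222). It had 46.1 to 102 CPM in activated naive libraries (median 87.3) and 5.78 to 13.0 CPM in naive libraries (median 10.2). The 4 groups stood in that order with no overlap, and all 6 pairs of groups differed past the threshold. The rise was 1.51 log2 units in reactivated TH1 against TH1 effector libraries (SE 0.20, adjusted p = 9.02e-08) and 3.06 in activated naive against naive libraries (SE 0.20, adjusted p = 2.67e-12). TH1 effector libraries were 4.50 log2 units above naive libraries (SE 0.20, adjusted p = 7.00e-15), so that unstimulated TH1 cells held more Rgs1 than stimulated naive cells, by 1.44 log2 units (adjusted p = 1.52e-07). The part of the macrophage markers, which were also higher in reactivated TH1 libraries, in this rise was not tested.

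Rgs3 tracked stimulation and hardly the cell state. It encodes an RGS protein made in several isoforms from a long gene, chr4:62559847-62704001 on the plus strand, and the counts do not separate its 17 annotated transcripts. Rgs3 had 78.3 to 127 CPM in reactivated TH1 libraries (median 101) and 34.4 to 49.9 CPM in TH1 effector libraries (median 38.0). It had 83.5 to 116 CPM in activated naive libraries (median 99.99) and 38.2 to 50.2 CPM in naive libraries (median 43.1). Stimulated and unstimulated libraries did not overlap, whereas both stimulated groups overlapped each other, as did both unstimulated groups. Rgs3 rose by 1.41 log2 units in reactivated TH1 against TH1 effector libraries (SE 0.086, adjusted p = 4.59e-14) and by 1.17 in activated naive against naive libraries (SE 0.086, adjusted p = 9.39e-13). Between reactivated TH1 and activated naive libraries the difference was 0.086 log2 units (adjusted p = 0.338). Between TH1 effector and naive libraries it was -0.15 (SE 0.086, adjusted p = 0.0962), and with the library number as a block it was -0.16 and past the threshold (adjusted p = 0.0278).

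Rgs2 had its lowest mean level in TH1 effector cells. It is known for a preference for Gq alpha subunits and as an early gene of T cell activation, and lies at chr1:143999338-144004161 on the minus strand. Rgs2 had 140.5 to 171 CPM in reactivated TH1 libraries (median 157.4) and 13.1 to 59.9 CPM in TH1 effector libraries (median 27.5). It had 54.5 to 143 CPM in activated naive libraries (median 131) and 78.2 to 143 CPM in naive libraries (median 95.6). Both TH1 groups were fully apart, while the activated naive libraries overlapped the naive ones, with 2 of them below the lowest naive library. The ranges of TH1 effector and activated naive libraries also overlapped, with a log2 fold change of -1.83 in TH1 effector against activated naive libraries (SE 0.31, adjusted p = 9.51e-06). Rgs2 rose by 2.33 log2 units in reactivated TH1 against TH1 effector libraries (SE 0.31, adjusted p = 5.83e-07). TH1 effector libraries were lower than naive libraries by 1.72 log2 units on the fitted scale (log2 fold change -1.72, SE 0.31, adjusted p = 2.15e-05). Activated naive and naive libraries differed by 0.11 log2 units (SE 0.31, adjusted p = 0.741), and with library totals alone as the scaling the difference was -0.052. Reactivated TH1 libraries stood 0.60 log2 units above naive libraries (adjusted p = 0.0558) and 0.50 above activated naive libraries (adjusted p = 0.119), neither past the threshold, although all 6 same-numbered pairs had the higher value in the reactivated TH1 library.

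Run and library number both moved with Rgs2. TH1 effector libraries averaged 18.2 CPM in the first run and 47.6 CPM in the second, so the change in reactivated TH1 against TH1 effector libraries was 3.03 log2 units within the first run and 1.77 within the second, past the threshold in each. TH1 effector against naive libraries gave -2.45 within the first run and -1.12 within the second. In the activated naive group, libraries 1 and 4 had 63.0 and 54.5 CPM, and the other 4 had 124 to 143 CPM. Without numbers 1 and 4 in every group, a setting chosen after seeing this, Rgs2 was 0.62 log2 units higher in activated naive than in naive libraries (adjusted p = 0.0176). Naive libraries 1 and 4 were the highest of their group for Rgs2, at 143 and 119 CPM against 78.2 to 105 CPM in the other 4, so this setting also lowers the naive mean. The same 2 activated naive libraries were the lowest of their group for Rgs1, at 46.1 and 70.8 CPM, and the highest for Rgs10, at 92.7 and 90.9 CPM, and for Rgs19, at 69.9 and 68.9 CPM. They were also the highest for Nr4a1, the gene whose promoter drives the reporter, which was chosen for this comparison after its values were seen. Nr4a1 had 11645 and 12801 CPM there, against 7143 to 7883 CPM in the other 4 activated naive libraries. In the naive group Nr4a1 had 801 and 496 CPM in libraries 1 and 4, against 239.2 to 384.6 CPM in the other 4. TH1 effector libraries went otherwise for Nr4a1. There library 1 was the lowest, at 133 CPM, and library 4 had 413 CPM, against 153 to 498 CPM in the other 4. For Rgs1, TH1 effector libraries 1 and 4 were the highest, at 234.5 and 236.7 CPM against 188 to 222 CPM in the other 4. In the reactivated TH1 group, libraries 1 and 4 were the highest for Rgs1, at 796 and 781 CPM against 506 to 593 CPM in the other 4, and for Nr4a1, at 1918 and 1088 CPM against 245 to 776 CPM. The part of Nr4a1 or of the library number in these values was not tested.

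**Figure D2:**
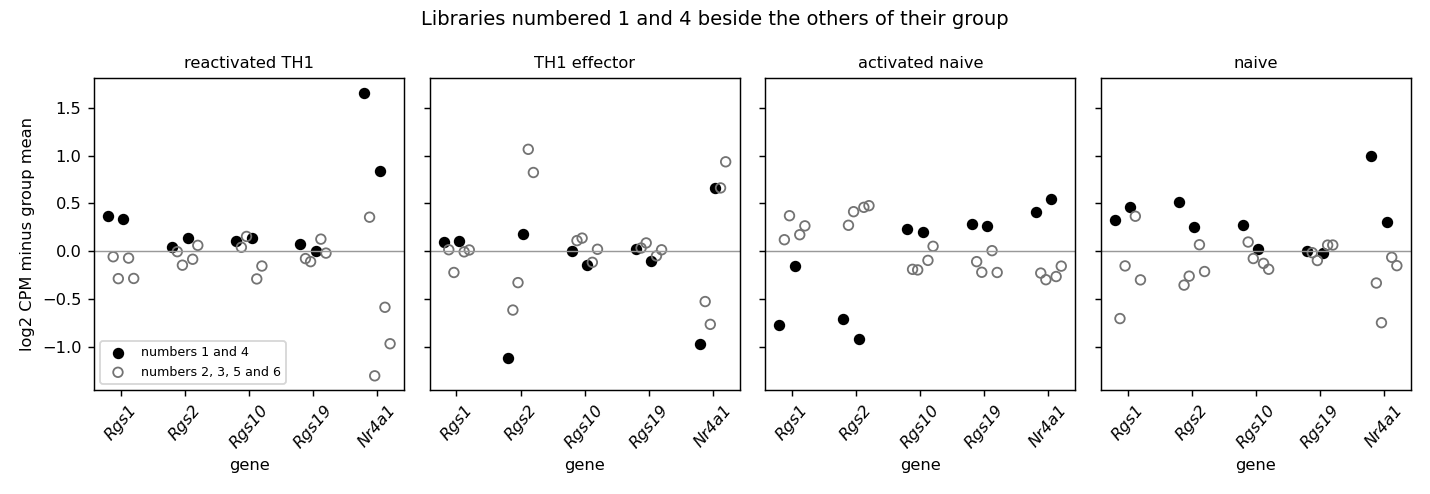
Level of Rgs1, Rgs2, Rgs10, Rgs19 and Nr4a1 in each library as log2 CPM minus the mean of its group, with 1 panel per group. Filled points are libraries 1 and 4, open points libraries 2, 3, 5 and 6. In the activated naive panel the filled points lie below the open ones for Rgs1 and Rgs2 and above them for Rgs10, Rgs19 and Nr4a1.

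Rgs14, Rgs10 and Rgs19 were the members that fell. Rgs14 encodes a scaffold with an RGS domain and a GoLoco motif, which holds inactive Gi alpha subunits, and lies at chr13:55369732-55384687 on the plus strand. Rgs14 had 15.9 to 17.8 CPM in reactivated TH1 libraries (median 16.7) and 39.0 to 56.3 CPM in TH1 effector libraries (median 45.1). It had 6.69 to 10.7 CPM in activated naive libraries (median 7.70) and 162.7 to 213 CPM in naive libraries (median 187). The 4 groups did not overlap, and the order from high to low was naive, TH1 effector, reactivated TH1 and activated naive. Rgs14 fell by 1.45 log2 units in reactivated TH1 against TH1 effector libraries (SE 0.085, adjusted p = 1.27e-14). In activated naive against naive libraries it fell by 4.53 log2 units (SE 0.085, adjusted p = 7.59e-24), a 23.1-fold drop. TH1 effector libraries were below naive libraries, with a log2 fold change of -2.02 (SE 0.085, adjusted p = 5.25e-18).

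Rgs10 was lowest in reactivated TH1 cells and highest in naive cells. It encodes a small RGS protein that acts on Gi alpha subunits and lies at chr7:128373621-128418758 on the minus strand. Rgs10 had 10.5 to 14.3 CPM in reactivated TH1 libraries (median 13.6) and 32.7 to 39.9 CPM in TH1 effector libraries (median 36.5). It had 69.0 to 92.7 CPM in activated naive libraries (median 77.9) and 82.6 to 114 CPM in naive libraries (median 92.7). The ranges of activated naive and naive libraries overlapped, and all other pairs of groups were apart. The fall was 1.49 log2 units in reactivated TH1 against TH1 effector libraries (log2 fold change -1.49, SE 0.091, adjusted p = 7.00e-14). In activated naive against naive libraries the log2 fold change was -0.25 (SE 0.091, adjusted p = 0.0104), with the lower value in the activated naive library of all 6 same-numbered pairs. That small change was -0.40 within the first run (adjusted p = 0.00427) and -0.075 within the second (adjusted p = 0.558), and without number 2 it missed the threshold (-0.19, adjusted p = 0.0718). TH1 effector libraries were below naive libraries by a log2 fold change of -1.38 (SE 0.091, adjusted p = 9.98e-14).

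Rgs19 was highest in naive cells. Its protein, also known as GAIP, acts on Gi alpha subunits, and the gene lies at chr2:181688419-181693977 on the minus strand. Rgs19 had 43.6 to 51.3 CPM in reactivated TH1 libraries (median 46.7) and 54.4 to 62.1 CPM in TH1 effector libraries (median 59.2). It had 49.2 to 69.9 CPM in activated naive libraries (median 55.4) and 86.4 to 96.6 CPM in naive libraries (median 92.1). Naive libraries stood above all others, reactivated TH1 libraries lay below TH1 effector libraries with no overlap, and activated naive libraries overlapped both TH1 groups. The log2 fold change was -0.31 in reactivated TH1 against TH1 effector libraries (SE 0.077, adjusted p = 5.29e-04), and within the second run it was -0.21 and missed the threshold (adjusted p = 0.0882). It was -0.67 in activated naive against naive libraries (SE 0.077, adjusted p = 7.51e-09) and -0.66 in TH1 effector against naive libraries (SE 0.077, adjusted p = 1.07e-08). TH1 effector and activated naive libraries differed by 0.013 log2 units (adjusted p = 0.877), with a sign that changed with the scaling and the libraries used.

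**Figure D3:**
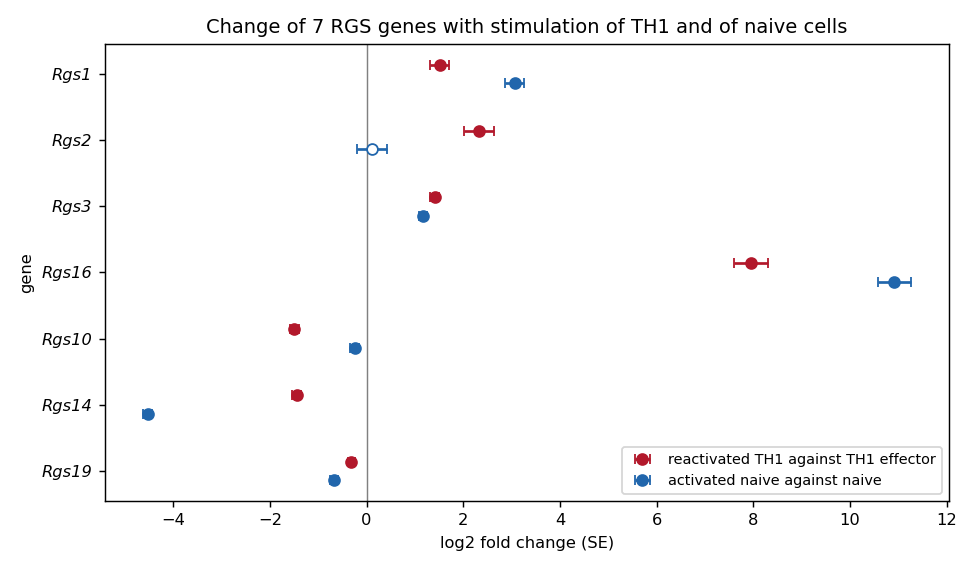
Log2 fold change of each RGS gene in reactivated TH1 against TH1 effector libraries (red, upper point of each pair) and in activated naive against naive libraries (blue, lower point), with the SE as bars. Filled points passed an adjusted p of 0.05. Only Rgs2 in activated naive against naive libraries, at 0.11, is open, and Rgs16 and Rgs14 changed most in naive cells.

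The response of TH1 cells differed from that of naive cells for 6 of the 7 members, by a test of the difference between both log2 fold changes. It was higher for 3 members and lower for 3, where 34.3% of all genes tested were higher and 33.7% lower. The difference, TH1 response minus naive response, was 3.08 log2 units for Rgs14 (SE 0.12, adjusted p = 1.95e-17), whose fall was smaller in TH1 cells. It was -2.96 for Rgs16 (SE 0.49, adjusted p = 8.81e-08) and -1.55 for Rgs1 (SE 0.28, adjusted p = 2.00e-05). Both rose by a larger log2 fold change, though not by more CPM, in naive cells, where they started lower. The Rgs16 value rests in part on the 32 counts of the naive libraries. The difference was 2.22 for Rgs2 (SE 0.43, adjusted p = 7.98e-05), with 2.95 within the first run, 1.61 within the second and 1.47 without numbers 1 and 4. For Rgs10 the difference was -1.24 (SE 0.13, adjusted p = 2.12e-09), and for Rgs19 it was 0.36 (SE 0.11, adjusted p = 0.00461). The Rgs19 difference missed the threshold within the first run (0.23, adjusted p = 0.194) and without numbers 5 and 6 (0.24, adjusted p = 0.121). For Rgs3 it was 0.24 (SE 0.12, adjusted p = 0.0764), and with the library number as a block it was again 0.24 and past the threshold (adjusted p = 0.0224).

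The remaining pairs of groups can be read against their own background. In TH1 effector against naive libraries 2 members were higher and 4 lower, where 44.6% of all genes were higher and 40.3% lower. In TH1 effector against activated naive libraries 2 were higher and 4 lower, where 45.6% of all genes were higher and 41.2% lower. The 2 higher members there were Rgs1 and Rgs14. In reactivated TH1 against activated naive libraries 3 were higher and 2 lower, where 43.4% of all genes were higher and 36.4% lower. In reactivated TH1 against naive libraries 3 were higher and 3 lower, where 47.9% of all genes were higher and 39.8% lower. Between these last groups Rgs1 differed by 6.01 log2 units (adjusted p = 5.41e-17), and Rgs10 had a log2 fold change of -2.87 (adjusted p = 4.51e-20).

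To compare genes with one another, levels were divided by the length of the exons of RefSeq-matched transcripts and summed over the 11 RGS genes tested. The sum of mean levels was 783 CPM per kilobase in reactivated TH1, 189 in TH1 effector, 375 in activated naive and 279.8 CPM per kilobase in naive cells. Rgs16 alone made up 64.5% of that sum in reactivated TH1 cells and Rgs1 20.9%. In TH1 effector cells Rgs1 led with 30.3%, followed by Rgs10 with 21.8% and Rgs19 with 14.5%. In activated naive cells Rgs16 made up 48.5% and Rgs10 24.1%. Naive cells were led by Rgs10 with 38.5%, Rgs14 with 28.2%, Rgs19 with 15.5% and Rgs2 with 12.1%. Rgs16, the leading gene of both stimulated groups, made up 1.08% in TH1 effector and 0.0334% in naive cells. With all annotated exons as the length, Rgs19 came before Rgs10 in TH1 effector cells, and the leading gene of every group was the same. The share of Rgs10 was then 31.0% in naive and 15.1% in activated naive cells. Without division by length, Rgs14 led in naive cells with 33.6% and Rgs10 made up 17.1%, while the other groups kept their leading gene.

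**Figure D4:**
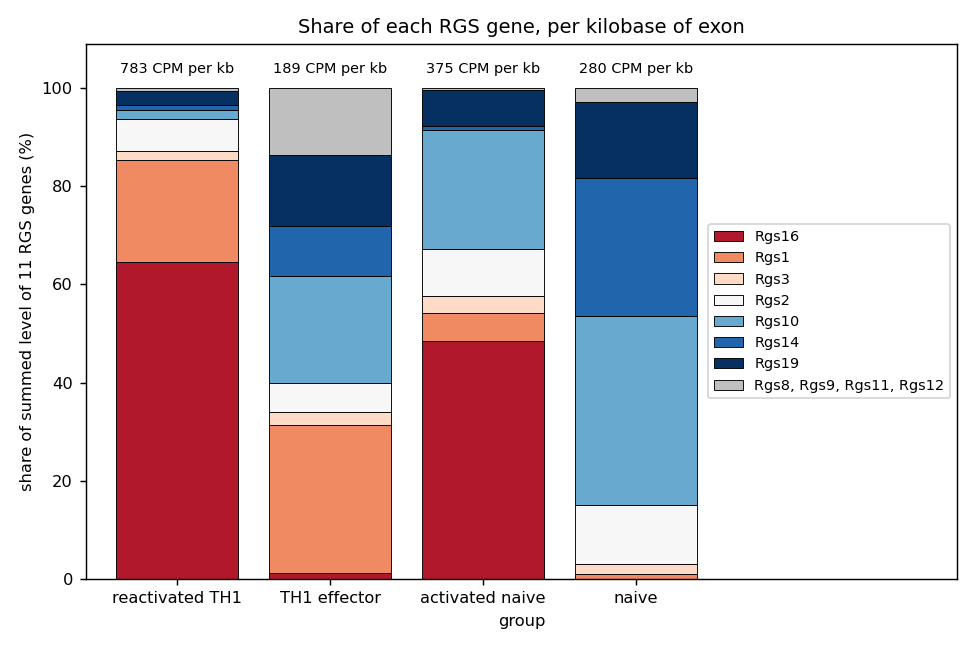
Share (%) of each RGS gene in the summed level per kilobase of exon of 11 RGS genes, by group, from mean levels over 6 libraries. Printed over each column is the summed level. Rgs16 takes 64.5% in reactivated TH1 and 48.5% in activated naive cells, and Rgs10 leads in naive cells with 38.5%.

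Beside the 7 members, 13 other RGS genes were measured, and Rgs8, Rgs9, Rgs11 and Rgs12 had enough counts to be tested. Rgs11 and Rgs12 were higher in TH1 effector cells than in any other group. Rgs11 averaged 3.58 ± 1.01 CPM in reactivated TH1, 41.1 ± 20.1 in TH1 effector, 1.43 ± 0.461 in activated naive and 11.5 ± 1.56 CPM in naive libraries (SD, n = 6 each). Its TH1 effector libraries averaged 56.6 CPM in the first run and 25.6 CPM in the second. The 9 B cell markers measured of 10 had summed levels of 8.86, 16.3 and 31.7 CPM in TH1 effector libraries 1 to 3, the first run. In libraries 4 to 6, the second run, the sums were 5.72, 6.79 and 6.10 CPM. Any library of the other groups had at most 3.84 CPM. In the same order of libraries Rgs11 had 52.1, 69.3 and 48.4 CPM and then 40.1, 15.4 and 21.4 CPM, so the sum and Rgs11 ranked the libraries differently. The part of the B cell markers in the level of Rgs11 was not tested. Its log2 fold change was -3.47 in reactivated TH1 against TH1 effector libraries (SE 0.29, adjusted p = 8.85e-11), and it was -4.14 within the first run and -2.71 within the second. In activated naive against naive libraries the log2 fold change of Rgs11 was -3.02 (SE 0.29, adjusted p = 3.50e-09). Rgs12 averaged 9.53 ± 2.30 CPM in reactivated TH1, 26.2 ± 1.72 in TH1 effector, 3.23 ± 0.886 in activated naive and 11.9 ± 2.10 CPM in naive libraries. It too was lower after stimulation, with log2 fold changes of -1.47 in reactivated TH1 against TH1 effector libraries (adjusted p = 3.40e-09) and -1.88 in activated naive against naive libraries (adjusted p = 1.12e-10). Exons of Rgs11 and Rgs12 overlap a gene on the other strand over 3.28% and 5.50% of their length.

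Rgs8 and Rgs9 were rare. Rgs8, which ends 40025 bases before Rgs16 on the same strand, averaged 1.70 ± 0.336 CPM in reactivated TH1, 0.185 ± 0.129 in TH1 effector and 0.220 ± 0.142 CPM in activated naive libraries, and had 0 counts in naive libraries. Against the 3 counts over 6 libraries that 0 counts allow, 0.0205 CPM, Rgs8 was at least 83.0-fold higher in reactivated TH1 and at least 10.7-fold higher in activated naive than in naive cells, for counting error only. It rose by 3.15 log2 units in reactivated TH1 against TH1 effector libraries (adjusted p = 4.51e-08). Rgs9 averaged 4.92 ± 1.65 CPM in reactivated TH1, 1.79 ± 0.837 in TH1 effector, 1.42 ± 0.247 in activated naive and 0.0759 ± 0.0740 CPM in naive libraries. Rgs13, which lies between Rgs2 and Rgs1 on chromosome 1, had 7 counts over the 6 reactivated TH1 libraries and 0 in naive libraries. Rgs18, 503 kb beyond Rgs1, had 3 counts over the reactivated TH1 libraries and 11 over the TH1 effector libraries. Rgs21, annotated between Rgs1 and Rgs18, was not among the genes measured. Rgs13 and Rgs18 were thus at or near 0 counts in cells where Rgs1 and Rgs2 were abundant.

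Transcripts of the G proteins on which RGS proteins act were read in the same libraries. Of 12 G protein alpha subunit genes tested, 3 were higher and 7 lower in reactivated TH1 against TH1 effector libraries (median log2 fold change -0.55, against -0.0023 over all genes), where 39.9% of all genes were higher and 39.8% lower. Gnaz and Gnai1 averaged 4.75 and 0.748 CPM in TH1 effector libraries, against 0.123 and 0.151 CPM in reactivated TH1 libraries. Both were tested only through their level in TH1 effector cells, so their fall was built into these counts. Gnat2 lay the other way, at 0.729 CPM in reactivated TH1 and 0.333 CPM in TH1 effector libraries. In activated naive against naive libraries 6 were higher and 2 lower (median 0.29, against 0.0046 over all genes), where 41.3% of all genes were higher and 40.5% lower. Gnai2, the main Gi alpha subunit of lymphocytes and a target of several members, fell in both. Gnai2 averaged 152 ± 13.7 CPM in reactivated TH1 and 542 ± 42.3 CPM in TH1 effector libraries (log2 fold change -1.83, SE 0.069, adjusted p = 6.58e-18). It averaged 120.2 ± 14.5 CPM in activated naive and 521 ± 40.8 CPM in naive libraries (log2 fold change -2.11, SE 0.069, adjusted p = 1.02e-19). Gnaq, the Gq alpha subunit, was higher in TH1 effector libraries, at 44.96 ± 9.05 CPM, than in naive libraries, at 7.38 ± 1.34 CPM (log2 fold change 2.60, adjusted p = 2.96e-19).

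All 10 beta and gamma subunit genes tested were higher in TH1 effector than in naive libraries. Gng11, at 0.856 CPM in TH1 effector and 0.00783 CPM in naive libraries, was tested only through its level in TH1 effector cells. Its place in this count was thus fixed by the filter. Of all genes tested there, 44.6% were higher and 40.3% lower. Among the 10 subunit genes Gnb5, the beta subunit that binds Rgs9, Rgs11 and their relatives, averaged 32.3 ± 3.43 CPM in TH1 effector and 1.75 ± 0.157 CPM in naive libraries (log2 fold change 4.20, SE 0.17, adjusted p = 2.50e-18). Gng2, a gamma subunit, fell with stimulation, to 30.4 ± 5.50 CPM in reactivated TH1, against 129 ± 6.36 CPM in TH1 effector libraries (log2 fold change -2.08, adjusted p = 2.76e-12). In activated naive libraries Gng2 averaged 3.71 ± 1.24 CPM, against 32.6 ± 6.64 CPM in naive libraries (log2 fold change -3.15, adjusted p = 6.56e-15).

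Effectors and the proteins that switch receptors off were mostly lower after stimulation. Of 21 effector genes tested, 1 was higher and 19 lower in reactivated TH1 against TH1 effector libraries (median log2 fold change -1.13, against -0.0023 over all genes). Over all genes tested there, 39.9% were higher and 39.8% lower. In activated naive against naive libraries 3 of the effector genes were higher and 16 lower (median -1.04, against 0.0046 over all genes). Over all genes tested there, 41.3% were higher and 40.5% lower. Adcy7, an adenylyl cyclase, averaged 44.4 ± 8.30 CPM in activated naive and 650.5 ± 47.4 CPM in naive libraries (log2 fold change -3.87, SE 0.089, adjusted p = 1.49e-22). Pik3r5, a regulatory subunit of the kinase that beta-gamma subunits activate, averaged 12.1 ± 3.76 CPM in activated naive and 347 ± 16.6 CPM in naive libraries (log2 fold change -4.85, adjusted p = 1.20e-19). Its catalytic partner Pik3cg averaged 9.53 ± 2.60 CPM in reactivated TH1 and 51.4 ± 12.9 CPM in TH1 effector libraries (log2 fold change -2.43, adjusted p = 3.27e-13). Of 6 receptor kinase and arrestin genes tested, 1 was higher and 5 lower in reactivated TH1 against TH1 effector libraries, and 0 were higher and 5 lower in activated naive against naive libraries. The shares over all genes are those given above for each comparison. Arrb1, which encodes beta-arrestin, averaged 14.4 ± 4.02 CPM in reactivated TH1 and 266 ± 62.0 CPM in TH1 effector libraries (log2 fold change -4.20, adjusted p = 1.25e-16).

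Receptor genes did not move as 1 group. Of 17 Gi-coupled chemoattractant receptor genes tested, 3 were higher and 10 lower in reactivated TH1 against TH1 effector libraries, while 9 were higher and 5 lower in activated naive against naive libraries. Over all genes tested, 39.9% were higher and 39.8% lower in the first comparison, and 41.3% were higher and 40.5% lower in the second. Ccr8, a chemokine receptor, averaged 72.9 ± 15.5 CPM in activated naive and 0.0644 ± 0.0517 CPM in naive libraries (log2 fold change 10.01, SE 0.26, adjusted p = 3.10e-21). Cxcr3, the receptor typical of TH1 cells, averaged 45.9 ± 7.54 CPM in activated naive and 0.0736 ± 0.0323 CPM in naive libraries (log2 fold change 9.20, adjusted p = 4.41e-21). Both folds rest on few counts in naive libraries. S1pr1, the receptor that guides T cells out of lymphoid tissue, averaged 17.8 ± 9.23 CPM in activated naive and 606 ± 44.3 CPM in naive libraries (log2 fold change -5.11, SE 0.27, adjusted p = 8.76e-14). Ccr4, a chemokine receptor, averaged 7.68 ± 2.16 CPM in reactivated TH1 and 124 ± 19.4 CPM in TH1 effector libraries (log2 fold change -4.01, adjusted p = 1.24e-15). Of 8 Gs-coupled receptor genes tested, 5 were higher and 2 lower in reactivated TH1 against TH1 effector libraries, and 6 were higher and 1 lower in activated naive against naive libraries. The shares over all genes given for the Gi-coupled receptors apply to these counts as well. Ptger2, a receptor of prostaglandin E2, averaged 130.4 ± 20.9 CPM in reactivated TH1 and 16.1 ± 2.04 CPM in TH1 effector libraries (log2 fold change 3.02, SE 0.27, adjusted p = 3.07e-17).

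**Figure D5:**
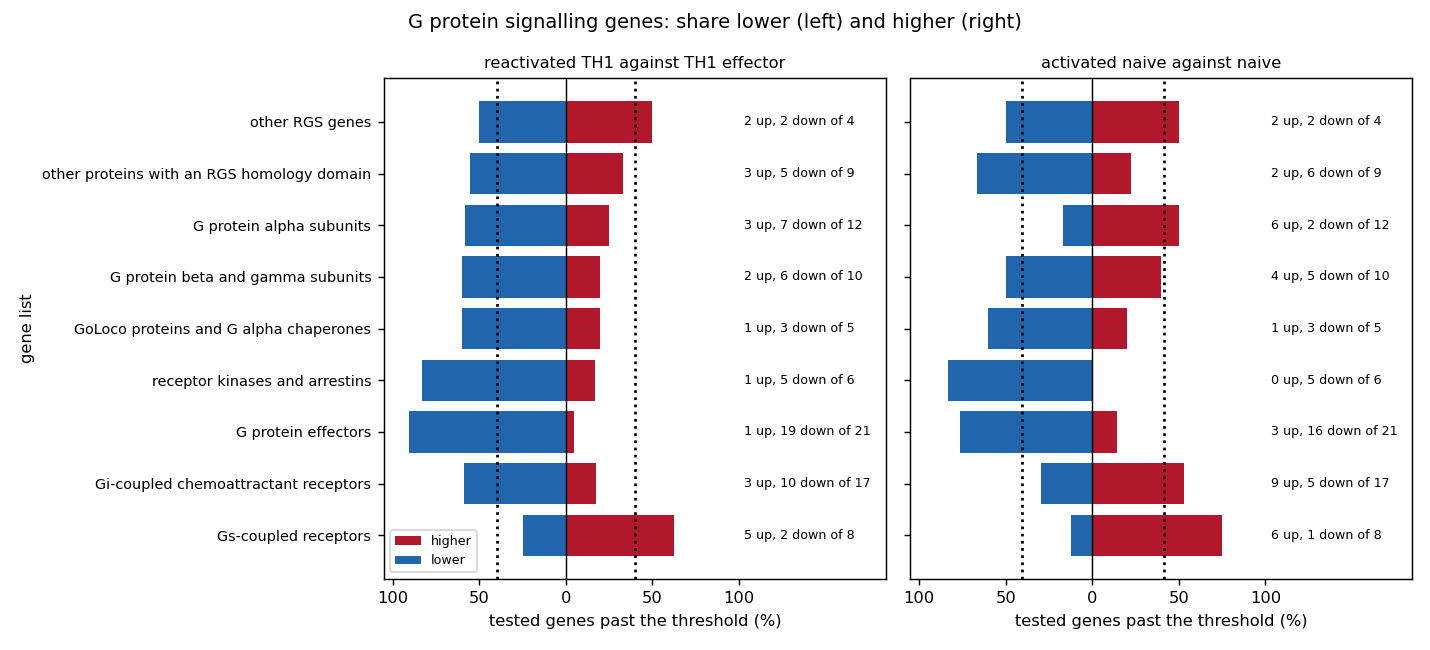
Share (%) of the tested genes of 9 lists that were higher (red, to the right) or lower (blue, to the left) at an adjusted p under 0.05, in reactivated TH1 against TH1 effector libraries and in activated naive against naive libraries. Dotted lines give the share over all genes tested. Effectors, with 19 of 21 lower in TH1 cells and 16 of 21 lower in naive cells, lie beyond the left dotted line in both panels. Other lists do so too, such as receptor kinases and arrestins with 5 of 6 lower in each.

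The genes whose levels followed each member most closely were taken as the 3 highest Pearson correlations of log2 CPM over the 24 libraries, among 9608 genes, as a description, since the libraries share 4 group means. Rgs16 ran closest to Gtf2f2 (r = 0.992), Srm (0.990) and Nhp2l1 (0.990). Rgs14 ran closest to Adcy7 (r = 0.993), Jakmip1 (0.992) and Nedd4l (0.990). For Rgs1, 2 of the 3 are given, Fam60a (r = 0.987) and Csda (0.987). For Rgs3 they were Srprb (r = 0.980), Extl3 (0.979) and Pim3 (0.977), and for Rgs10 Vps28 (0.990), Inpp5d (0.981) and Wbp1l (0.979). Rgs19 ran closest to Idnk (r = 0.970), Arhgap27 (0.970) and Pea15a (0.968). Rgs2 had the loosest neighbours, with Nfkbia (r = 0.930), an inhibitor of NF-kB, ahead of 8030462N17Rik (0.907) and Hnrnph1 (0.899).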

How the data were processed

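The authors deposited raw counts of reads per gene symbol for each of the 24 libraries. The submitters' processing notes name genome build mm10 and the tools STAR, HTSeq and DESeq2. What each did, its version, the annotation and the strand setting were not given in the sources used here. Per the labels' protocols, the library kit keeps strand.

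Lines for reads given to no gene stayed out of library totals and tests, and such reads meeting no feature made up 13.2% to 24.5%. In R 4.3.3, edgeR 4.0.16 fitted 1 quasi-likelihood model with TMM scaling, filterByExpr and terms for group and run to all libraries. Enough counts in the libraries of a single group let a gene pass this filter, so some genes were tested only through the group where they were high. Benjamini-Hochberg adjustment ran over 12584 genes with a threshold of 0.05. The run was read from the flow cell in each file name. SEs are of differences between group means of log2 CPM (prior count 2). The procedure was tested on simulated data. Libraries of a group differed beyond sampling noise (lowest chi-square per degree of freedom 8.90). The labels do not say that libraries of a group are separate animals, and p-values measure the spread between them.

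Same-numbered libraries deviated together (r = 0.106 to 0.430 over 36 pairs), and 3 numbers had Xist above 1000 CPM and 3 below 1 CPM in all 4 groups, so every group holds animals of both sexes. A fit with the number as a block was therefore added. Alternatives also covered DESeq2 1.42.0, other filters and scalings, single runs and libraries left out.

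Members and gene lists were chosen with earlier results of these data known. Among list genes, those named have the 2 largest changes in each direction past the threshold, a mean of at least 10 CPM in 1 group and no overlap. Annotation is GENCODE M21 and promoters are RefSeq, both on GRCm38. A gene that the rule for correlated genes picks for Rgs1 is not reported here.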

Additional observations from a re-analysis of the deposited data

Results flagged for a closer look

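In 3 of the 28 groups of 6 libraries formed by the 7 members and 4 cell states, 1 library stood apart from the other 5 by Dixon's criterion, which chance alone meets in about 1 of 20 groups. All 3 were TH1 effector libraries. Number 3 was low for Rgs1, at 188 CPM, where the others had 219 to 236.7 CPM. Number 1 was high for Rgs3, at 49.9 CPM, where the others had 34.4 to 39.3 CPM. Number 1 was also high for Rgs16, at 7.11 CPM, where the others had 3.71 to 4.91 CPM. A reason for these was not tested.

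The response of TH1 cells and that of naive cells differed by a test of the difference for 6 members. TH1 response minus naive response was -1.55 log2 units for Rgs1, 2.22 for Rgs2, -1.24 for Rgs10, 3.08 for Rgs14, -2.96 for Rgs16 and 0.36 for Rgs19. All 6 same-numbered sets of libraries showed the same direction for each of these members. Both responses differ in cell state and, as far as the labels say, may differ in the stimulus, and these cannot be told apart.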

How the results depend on the processing

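The 49 results of the members, 7 in each of 7 comparisons, were recomputed under 18 alternatives, and 844 of 875 values had the same direction and the same side of the threshold. For 41 results this held under every alternative, among them every result of Rgs1, Rgs14 and Rgs16. The count of members past the threshold stayed between 5 and 7 in every comparison and alternative. Signs changed for 2 small differences that did not pass the threshold. Rgs2 in activated naive against naive libraries, 0.11 log2 units, was -0.052 with library totals alone and -0.18 without numbers 5 and 6, and leaving out 1 number at a time gave -0.038 to 0.38. Rgs19 in TH1 effector against activated naive libraries, 0.013, was -0.024 with no filter, -0.079 in the second run alone and -0.048 without numbers 5 and 6, and leaving out 1 number gave -0.049 to 0.073. With library totals alone it was 0.15 and past the threshold (adjusted p = 0.0482). Rgs2 in reactivated TH1 against naive libraries passed with only these groups fitted (0.54, adjusted p = 0.00192), without number 1 (0.73, adjusted p = 0.0194) and without numbers 1 and 4 (0.74, adjusted p = 0.00616). Rgs3 in TH1 effector against naive libraries passed in 6 alternatives, with adjusted p from 0.00384 to 0.393 over all of them, and its difference between responses in 4, from 0.0173 to 0.365. The replicate block changed these 2 calls of Rgs3, printed above, and no other call of a member. The cause of these changes was not tested. Library totals alone moved the median of all genes by -0.17 log2 units in activated naive against naive libraries and by -0.12 in reactivated TH1 against TH1 effector libraries. Among the other named genes 1 result lost its call, Gnb5 in reactivated TH1 against TH1 effector libraries in the second run alone (0.25, adjusted p = 0.145). Depth limits Rgs16 in naive libraries, at 32 counts, and Rgs8.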

Other observations

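Genes of other proteins with an RGS homology domain, such as axins and sorting nexins, were read as a list. Of 9 such genes tested, 3 were higher and 5 lower in reactivated TH1 against TH1 effector libraries, where 39.9% of all genes were higher and 39.8% lower. Activated naive against naive libraries gave 2 higher and 6 lower, where 41.3% of all genes were higher and 40.5% lower. Axin2, a scaffold of Wnt signalling, averaged 5.54 ± 0.687 CPM in TH1 effector and 88.5 ± 6.80 CPM in naive libraries (log2 fold change -4.00, SE 0.20, adjusted p = 2.25e-15). Snx25, a sorting nexin, was higher in TH1 effector libraries, at 88.2 ± 5.69 CPM, than in naive libraries, at 23.99 ± 1.23 CPM (log2 fold change 1.88, SE 0.059, adjusted p = 3.07e-19).

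Genes of GoLoco proteins, which share with Rgs14 a motif for inactive Gi alpha subunits, and of alpha subunit chaperones showed 1 higher and 3 lower of 5 tested in both responses. Over all genes tested, 39.9% were higher and 39.8% lower in reactivated TH1 against TH1 effector libraries. The shares were 41.3% and 40.5% in activated naive against naive libraries. Gpsm3 averaged 33.0 ± 3.52 CPM in reactivated TH1 and 97.8 ± 7.85 CPM in TH1 effector libraries (log2 fold change -1.57, adjusted p = 4.55e-13). In activated naive libraries Gpsm3 averaged 42.3 ± 8.70 CPM, against 245 ± 20.8 CPM in naive libraries (log2 fold change -2.54, adjusted p = 1.74e-17).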
